A study of Homo sapiens with 6 samples.

Results

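RPS3, RPS29 and RPS26 encode proteins of the small (40S) ribosomal subunit, and each of their mRNAs carried 1 listed 5-methylcytosine (m5C) site in HEK293T cells, a line derived from human embryonic kidney. The 3 sites were taken by gene name from the lists of called m5C sites of 6 polysome gradient fractions, and gave 9 listings among 1222 listings of 542 sites in 501 genes. RPS3 and RPS29 were listed in all 4 libraries from free to monosome, and RPS26 in the large subunit library alone. None of the 3 was listed in the light or heavy polysome library. At the RPS29 site the m5C level was 13.5% in the free library and 16.1% in the monosome library, while the RPS3 site stayed between 10.9% and 11.1% in its 4 libraries. The genes were chosen by their name, with their levels, coverages and shares of reads in these lists known, so those values are a description. The choice set no condition on the difference in level between libraries, which is the only quantity tested. That difference follows from the known levels, however, so its p-values do not come from values unseen at the choice.

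To ask how mRNA m5C relates to ribosome loading, lysate of wildtype HEK293T cells prepared with cycloheximide in the lysis buffer was separated on a sucrose gradient, and poly(A)-selected RNA of each pooled fraction was bisulfite sequenced. The libraries hold RNA with no ribosome (free), with a small subunit, with a large subunit, with 1 ribosome (monosome), with 2 to 5 ribosomes (light polysome) and with more than 5 ribosomes (heavy polysome), as 1 library per fraction and without replicates. Bisulfite turns unmethylated C into a base read as T, so the m5C level is the share of C among C and T reads at a site, and the number of those reads is its coverage. A site was listed only at a level of at least 10% and a coverage of at least 20 reads, besides other filters, so a site missing from a list was not shown to be unmethylated. Intervals and p-values cover the counting of reads only, because each fraction had 1 library. The reads had no molecular identifiers, so amplified copies of the same molecule count as separate reads. The intervals can therefore be too narrow and the p-values too small. The depth of whole libraries is unknown.

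The small subunit recruits mRNA and scans it for the start codon. RPS3 (uS3) lines the channel through which mRNA enters and also has a role in DNA repair, RPS29 (uS14) is a small zinc-binding protein of the subunit head, and RPS26 (eS26) lies at the channel through which mRNA leaves. RPS26 and RPS29 are among the genes mutated in Diamond-Blackfan anaemia. Ribosomal protein mRNAs begin with a 5′ terminal oligopyrimidine tract, through which mTOR and LARP1 control their translation, and their genes have left many processed pseudogenes in the genome. In mRNA, NSUN2 methylates sites followed by G-rich sequence (Type I) and NSUN6 methylates sites followed by UCCA (Type II).

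The spliced sequence around each site is shown because all 3 sites share a feature downstream of the methylated base. Each line gives 21 nt of the mRNA in DNA letters, with the methylated C and the next 4 bases in capitals, from the GRCh37 genome. RPS3P6, a processed pseudogene of RPS3 with its own listing, is given for comparison.
RPS3: acagggtgtgCTGGGcatcaa
RPS29: acggtctgatCCGGAaatatg
RPS26: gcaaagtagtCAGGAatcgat
RPS3P6: acagggtgtgCTGGGcatcaa

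Type I here means every site not followed by UCCA. Of 351 such sites, 223 (63.5%) had 2 or more G in the next 3 bases. The sites of RPS3, RPS29 and RPS26 were Type I and had GG as the second and the third base after the methylated C. This dinucleotide was present at 156 of 351 Type I sites (44.4%). A run of GGG from the second to the fourth base, found at 24.2% of Type I sites, was present in RPS3 alone among the 3. RPS2, another small-subunit gene with a Type I site, had GCGG after the C and so did not have GG at these positions.

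All 3 sites lay in coding sequence, as did 48.0% of the 540 sites with a complete sequence of 21 nt and 41.3% of the Type I sites among them. The RPS3 site (ENSG00000149273, chr11:75115721, plus strand) was in exon 6 of 7, with 5 nt of that exon before it, and was the first base of a CTG codon, codon 182 of 243. The RPS29 site (ENSG00000213741, chr14:50052737, minus strand) was in exon 2 of 3 and was the third base of an ATC codon, codon 31 of 56. The RPS26 site (ENSG00000197728, chr12:56437217, plus strand) was in exon 3 of 4 and was the third base of a GTC codon, codon 84 of 115. Among 145 Type I sites in coding sequence, 40.7% were at the third, 37.9% at the first and 21.4% at the second codon base.

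In the minimum free energy structure predicted from 50 nt on either side, the RPS3 site itself was paired with a base downstream, and the sites of RPS29 and RPS26 were unpaired. Of the 10 bases after the site, 7 in RPS3, 10 in RPS29 and 6 in RPS26 were paired with bases further downstream. The median over 351 Type I sites was 3, with an interquartile range of 0 to 6, and 29.9% of Type I sites had 6 or more such bases. With 25 nt on either side these numbers were 0, 2 and 3, and with 75 nt they were 8, 10 and 0, so they depended on the length that was folded.

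RPS29 had the highest coverage of all listed sites in the free library and the second highest in the other 3 libraries that listed it. From the free to the monosome library it was covered by 225979, 62051, 33027 and 26073 reads. These reads included 30607, 8366, 4740 and 4198 C reads. The level was 13.5% (95% Wilson interval 13.4 to 13.7) for free RNA, 13.5% (13.2 to 13.8) with the small subunit, 14.4% (14.0 to 14.7) with the large subunit and 16.1% (15.7 to 16.6) for monosomes. The free and small subunit intervals overlapped, and the large subunit and monosome intervals lay above both and apart from each other. Among the listed sites of each library, the RPS29 level stood at percentile 25, 27.6, 39.9 and 45.2 in that order.

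**Figure D1:**
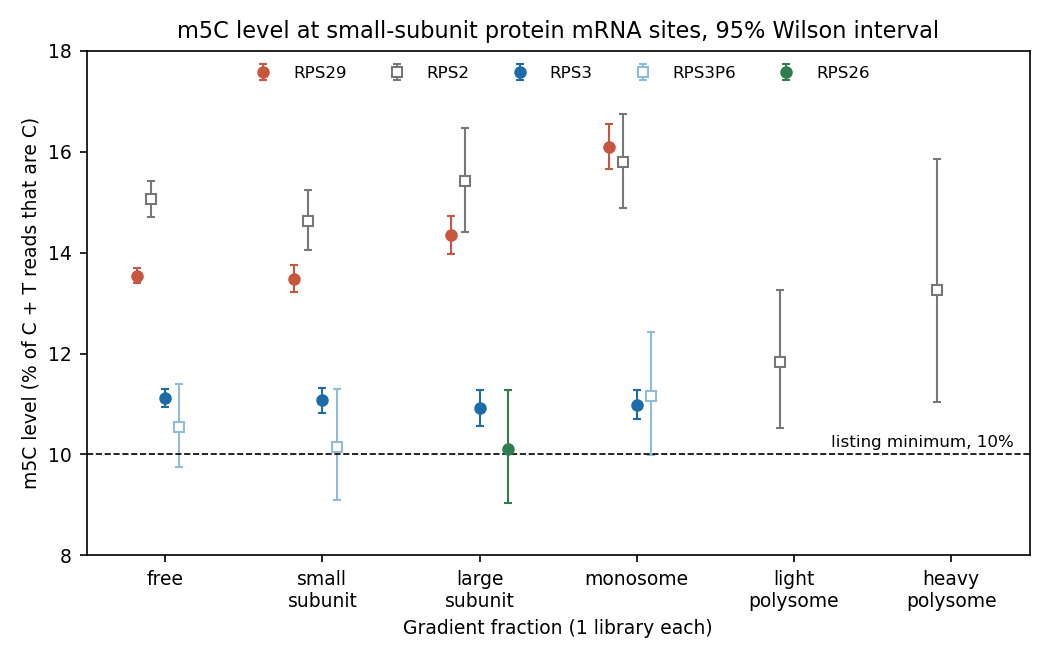
m5C level (percent of C and T reads that are C) of each site in the 6 gradient fractions, with 95% Wilson intervals as bars. Filled circles are RPS29, RPS3 and RPS26, open squares are RPS2 and the pseudogene RPS3P6, and the dashed line is the 10% minimum for listing. RPS29 goes from 13.5% in the free library to 16.1% in the monosome library, RPS3 stays at 10.9% to 11.1%, and RPS26 appears once, at 10.1%.

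RPS3 had the highest coverage of all listed sites in the monosome library and came next after RPS29 and MT-RNR1, the mitochondrial 12S ribosomal RNA, in the other 3 libraries that listed it. Its coverage was 114888, 60382, 29370 and 45532 reads in the same order. The C reads numbered 12768, 6684, 3206 and 5001. The level was 11.1% (10.9 to 11.3), 11.1% (10.8 to 11.3), 10.9% (10.6 to 11.3) and 11.0% (10.7 to 11.3), and all 4 intervals overlapped. These levels were 0.916 to 1.11 percentage points above the listing minimum, against 3.48 to 6.10 for RPS29. They stood between percentile 9.44 and 12.2 of the levels listed in each library. Calling also required 3 variant bases, so the sites with the fewest reads could be listed only at higher levels. The median percentile of all member listings was 12.2 over all listed sites and 16.0 over sites with at least 50 reads. A level under 12% was found at 14.7% of the listed sites in the heavy polysome library and at up to 22.7% in the large subunit library.

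RPS26 was covered by 2762 reads in the large subunit library, of which 279 were C. Its level was 10.1% (9.03 to 11.3), so the interval reached below the listing minimum, from which the level itself was 0.101 percentage points away. Its level ranked 8 from the lowest among the 233 sites of that library, and its coverage ranked 9 from the highest. It was 1 of 49 sites listed in the large subunit library alone. Whether RPS26 was methylated at a similar level in the other fractions cannot be read from the lists.

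Differences between libraries were tested on the C and T reads with Fisher's exact test (two-sided), with Benjamini-Hochberg adjustment over every site listed in both libraries. Such a test compares those 2 libraries and not the conditions. RPS29 differed in 5 of 6 pairs of libraries, each time with the higher level in the denser fraction. Its level was 2.56 percentage points higher in the monosome than in the free library (95% Newcombe interval 2.09 to 3.03, adjusted p = 2.55e-27 by Fisher's exact test). It was 2.62 points higher in the monosome than in the small subunit library (2.1 to 3.14, adjusted p = 3.63e-22 by the exact test). The monosome library was 1.75 points above the large subunit library (1.17 to 2.34, adjusted p = 1.77e-07 by the exact test). The large subunit library was 0.808 points above the free library (0.408 to 1.22, adjusted p = 0.00166) and 0.869 points above the small subunit library (0.408 to 1.34, adjusted p = 0.00829, both by the exact test). The small subunit and free libraries differed by -0.0617 points (-0.364 to 0.244, adjusted p = 0.918 by the exact test).

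Few sites passed this test in the same pairs. Of the sites listed in both libraries, 9.46% were called between monosome and free (6.76% higher in the monosome), 4.5% between monosome and small subunit (3.6% higher) and 4.0% between monosome and large subunit (3.2% higher). The share was 4.29% between large subunit and free and 2.65% between large subunit and small subunit, all of these calls being higher with the large subunit. Between small subunit and free it was 2.2%, with 1.1% higher with the small subunit. The coverage of RPS29 was far above that of most sites, so smaller differences were detectable there than elsewhere.

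RPS3 was called in 0 of the same 6 pairs by Fisher's exact test, and 0 pairs had an unadjusted p under 0.05. Its differences ran from -0.198 to 0.0676 percentage points, with adjusted p between 0.787 and 1. The intervals of these differences reached from -0.594 to 0.524 points at their widest, which is less than the 0.808 points found for RPS29 between the large subunit and free libraries. RPS3 and RPS29 thus gave different values in the same libraries, and the difference between the genes was not tested. Because sites under 10% were not listed, a fall of the RPS3 level by more than about its distance from that minimum would have removed it from a list instead of appearing as a difference.

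**Figure D2:**
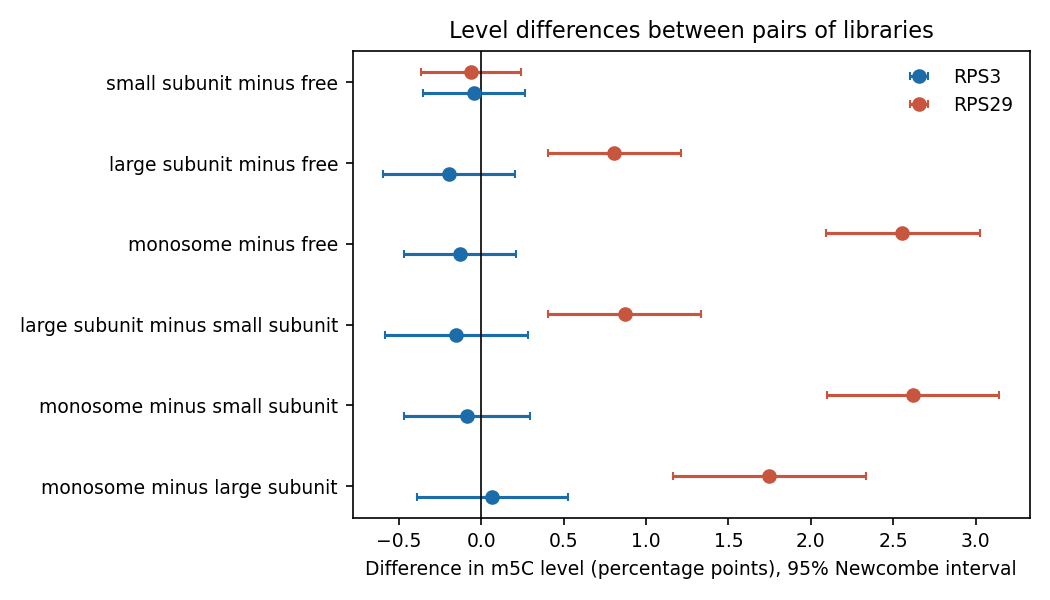
Difference in m5C level (percentage points, denser minus lighter library) for the 6 pairs of libraries that list RPS3 (blue) and RPS29 (red), with 95% Newcombe intervals as bars. The RPS3 intervals all cross 0, and the RPS29 intervals lie above 0 except between the small subunit and free libraries.

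RPS2 and RPSA, which encode 2 further small-subunit proteins, were listed in all 6 libraries and give the same comparison at other sites. RPS2 (chr16:2014563, minus strand, Type I) had levels of 15.1%, 14.6%, 15.4% and 15.8% from the free to the monosome library and was called in 0 of the 6 pairs, with differences from -0.428 to 1.16 points. RPSA (chr3:39450197, plus strand, Type II) had levels of 62.9%, 63.2%, 66.1% and 74.3% and, like RPS29, was called in 5 of 6 pairs with the higher level in the denser fraction. In the light and heavy polysome libraries the level was 11.8% and 13.3% for RPS2 and 63.9% and 55.2% for RPSA. Among other sites of high coverage, that of MT-RNR1, the mitochondrial rRNA, also had a higher level in the monosome (83.7%) than in the free library (56.4%). The level at SLC25A6 was 32.0% in the free and 32.9% in the monosome library, and at PABPC1 it was 20.9% and 21.4%. The part of library composition or conversion in the RPS29 difference was not tested.

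The reads at the members made up a large share of all reads at listed sites. From the free to the monosome library, RPS29 held 29.6%, 16.4%, 17.5% and 16.6% of them. RPS3 held 15.0%, 16.0%, 15.5% and 29.0% in the same order. RPS26 held 1.46% in the large subunit library. RPS29 therefore had its highest share at the light end of these 4 libraries and RPS3 at the dense end.

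**Figure D3:**
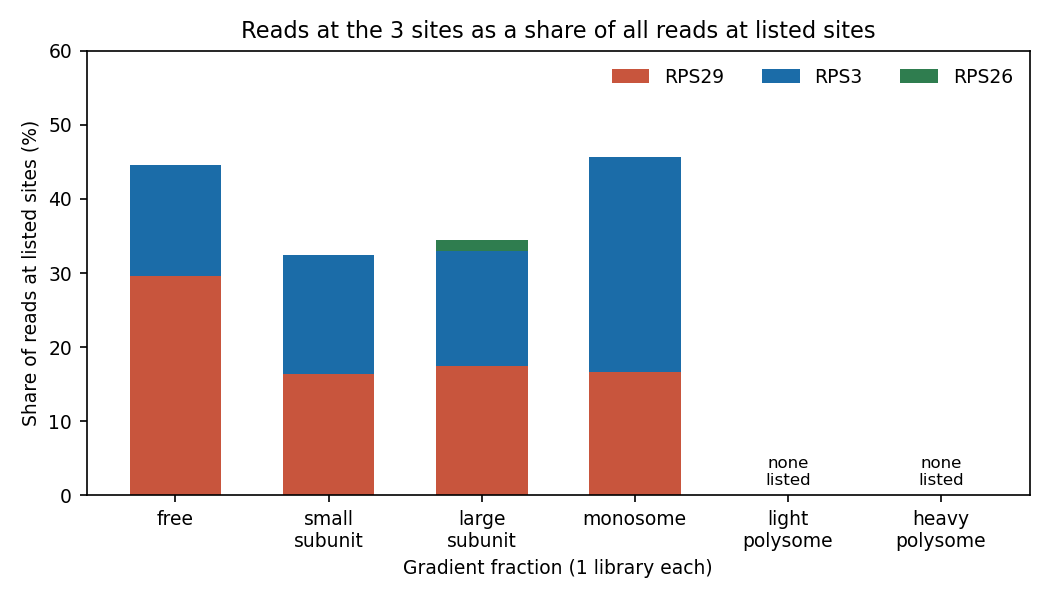
Reads at the RPS29 (red), RPS3 (blue) and RPS26 (green) sites as a percentage of all reads at listed sites in each gradient fraction, as stacked bars. The stacks reach 44.6%, 32.4%, 34.5% and 45.7% from the free to the monosome library, and no bar is drawn for the polysome libraries, where the 3 sites were not listed.

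Together the 3 sites held 44.6%, 32.4%, 34.5% and 45.7% of the listed reads from the free to the monosome library. Their levels were low, so they held only 18.7%, 11.5%, 12.5% and 22.0% of the listed C reads. The level pooled over all reads at listed sites was 30.4% in the free library with the 3 sites and 44.6% without them. It went from 34.8% to 45.5% in the small subunit library, from 34.8% to 46.4% in the large subunit library and from 26.7% to 38.4% in the monosome library. In the polysome libraries, which did not list the 3 sites, it was 36.1% (light) and 27.3% (heavy). Without MT-RNR1 as well, the pooled level was 34.1%, 35.2%, 33.3%, 31.3%, 28.1% and 23.6% from the free to the heavy polysome library. The order of the libraries by pooled level thus depended on these few sites.

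The other sites among the 5 with the highest coverage in the 4 libraries were those of MT-RNR1, RPSA, RPS2, SLC25A6, an ADP/ATP carrier of mitochondria, and PABPC1, the poly(A)-binding protein. MT-RNR1 held the first place in the small and large subunit libraries. No site of RPL genes, which encode the large subunit, was among them.

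Coverage differed between the free and monosome libraries by another factor at each site. In the monosome library it was 8.67 times lower at RPS29, 6.17 times lower at RPS2, 5.14 times lower at RPSA and 2.52 times lower at RPS3. Relative to the large subunit library, coverage in the monosome library was 1.55 times as high at RPS3 and 1.27 times at RPS2, but 0.789 times as high at RPS29 and 0.656 times at RPSA. The reads at RPS29 divided by those at RPS3 of the same library gave 1.97, 1.03, 1.12 and 0.573 from the free to the monosome library. RPS3 reads divided by RPSA reads gave 1.46, 1.19, 1.26 and 2.97. These ratios compare sites within a library and so do not depend on its depth, but they have no replicate error.

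**Figure D4:**
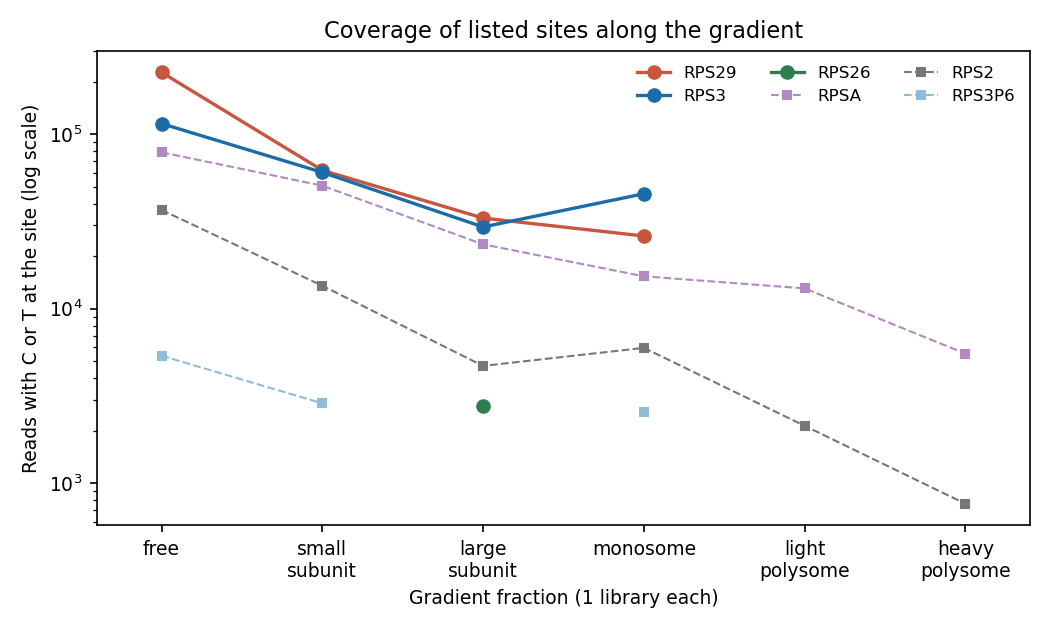
Reads with C or T at each site (log scale) in the 6 gradient fractions. Solid lines and circles are RPS29, RPS3 and RPS26, dashed lines and squares are RPSA, RPS2 and RPS3P6, and a gap means that the site was not listed. RPS29 has 225979 reads in the free and 26073 in the monosome library, where the RPS3 line lies above it at 45532.

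The 2 mRNAs whose coverage crossed differ in length. The coding sequence of RPS29 has 56 codons and that of RPS3 has 243, and the RPS26 coding sequence has 115. RPS2 and RPSA have 293 and 295 codons, and their coverage was 6.17 and 5.14 times lower in the monosome than in the free library. A relation between length and coverage was not tested. The place of these mRNAs on the gradient was measured here only through reads at 1 position of each.

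Both polysome libraries lacked the 3 sites although 2 of them had been among the best covered in the lighter libraries. Of 52 sites listed in all 4 lighter libraries, 12 were listed in neither polysome library, RPS3 and RPS29 among them. With at least 1000 reads in each of the 4 lighter libraries there were 9 sites. Of these, 5 were listed in both polysome libraries, 6 in the light polysome library and 3 in neither, namely RPS3, RPS29 and SLC25A5, an ADP/ATP carrier of mitochondria. The 6 sites listed in the light polysome library had 0.307 to 0.959 times as many reads in the light polysome as in the monosome library. The levels of RPS29 in the monosome library and of RPS2, which stayed listed, were 16.1% and 15.8%. A level under 10%, too few reads and removal by another filter cannot be told apart for RPS3 and RPS29 in the polysome libraries.

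**Figure D5:**
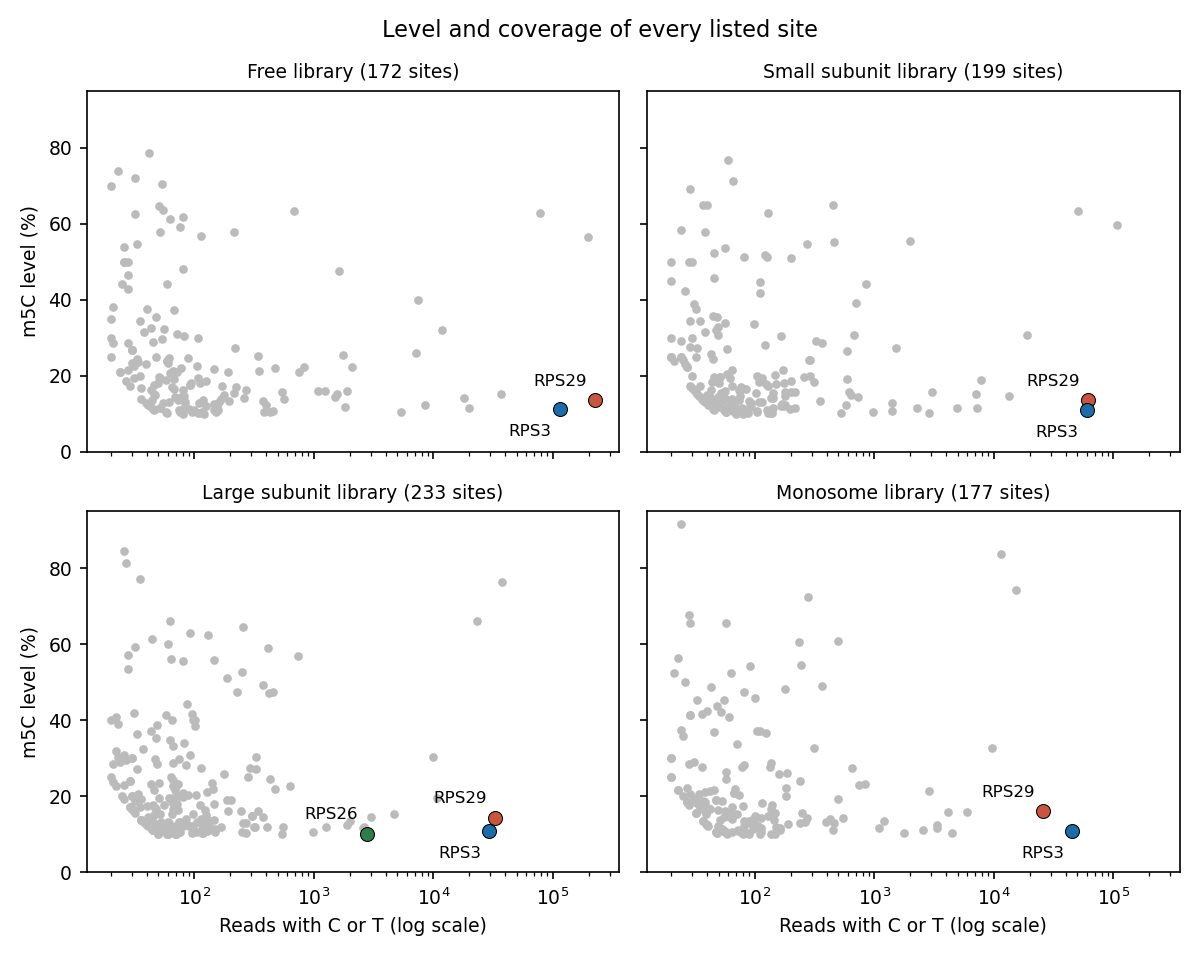
m5C level (percent) against coverage (reads with C or T, log scale) of every listed site in the 4 libraries from free to monosome, 1 panel each. Grey points are all sites, and the coloured points are RPS29 (red), RPS3 (blue) and RPS26 (green). RPS29 and RPS3 lie at the right edge of each panel and in the lower part of the levels, at 10.9% to 16.1%.

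By levels in exactly the same libraries, the sites nearest to RPS3 were those of SLC25A5 (chrX:118603937, plus strand, Type I, coding sequence), with a summed difference of 2.84 percentage points over 4 libraries, and of RP11-69L16.5, with 3.43 points. SLC25A5 had levels from 10.5% to 12.4% and a coverage of 2583 to 8544 reads. The nearest to RPS29 were RP3-337H4.6 (4.76 points), whose 21 nt were the same as those of RPS2, and MDH2 (5.66 points), a malate dehydrogenase of mitochondria with a Type II site. They came from 11 other sites with the same pattern of listing. For RPS26 the nearest of 48 others were SLC35A4 and FASTK, both at 10.2% from 59 reads in the 1 shared library.

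Reads from copies of these genes could have been counted at the same sites. The 21 nt around the RPS3 site had 3 other exact matches in the GRCh37 genome, those of RPS29 had 4 and those of RPS26 had 23, all of them in annotated pseudogenes. Another exact match was found for 16.7% of all 540 sites and for 12.2% of the 477 in protein-coding genes. When C was changed to T in both the site and the genome, as in mapping of bisulfite reads, the numbers were 3, 8 and 28, and 74.3% of all sites had another match. With 51 nt before this change 1, 1 and 9 matches were left, and after it 2, 2 and 14. The sequenced read pairs were longer than these windows, so the numbers do not count the places to which a read could map. The share of reads that came from copies was not measured by the deposited values.

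One copy of RPS3 had a listing of its own. RPS3P6 (ENSG00000213363, chr12:62415535, minus strand) has the same 31 nt around the site and differs at 1 of 51 nt, a difference that disappears when C is changed to T. It was listed at 10.5% from 5372 reads in the free library, at 10.1% from 2868 with the small subunit and at 11.2% from 2556 in the monosome library. The RPS3 level was higher by 0.577 points (-0.291 to 1.39) in the free library, by 0.923 points (-0.262 to 2.01) in the small subunit library and by -0.167 points (-1.48 to 1.03) in the monosome library, so each interval included 0. RPS3 had 21.4, 21.1 and 17.8 times as many reads as RPS3P6. With the reads of both sites summed, a choice made after seeing the data, the level was 11.1%, 11.0% and 11.0%. Whether reads at the listed pseudogene came from RPS3 mRNA cannot be told apart from expression of the pseudogene.

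Among 35 genes of the small subunit, 10 had a listed site, with 11 sites in all and a median level of 15.1% over 27 listings. Among 47 genes of the large subunit, 5 had a listed site, with 7 sites in all and a median level of 14.6% over 8 listings. Of the small-subunit genes, 5 reached 1000 reads in a library (RPS3, RPS29, RPS26, RPS2 and RPSA), and of the large-subunit genes 0 did. Sites in small-subunit genes held 59.7%, 49.4%, 49.3%, 59.3%, 20.0% and 12.5% of the listed reads from the free to the heavy polysome library, and sites in large-subunit genes held at most 0.0801%. The small-subunit sites were in 7, 4, 6, 6, 2 and 2 genes in that order. Both polysome lists held RPS2 and RPSA but not RPS3 or RPS29, so the lower shares there reflect which sites were listed.

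The other 13 sites in ribosomal protein genes, those outside RPS3, RPS29, RPS26, RPS2 and RPSA, had between 21 and 454 reads and 12 of them were listed in 1 library alone. They included sites in RPS18, RPS15A, RPS21 and RPS6 of the small subunit and in RPL9, RPL32, RPL24, RPLP2 and RPL18 of the large subunit. Of the 11 that could be placed in a transcript, 6 were within its first 50 nt, while the sites of RPS3, RPS29 and RPS26 were at nt 574, 127 and 501 of theirs. Only 1 of the 13 had GG as the second and the third base after the site, and 8 were followed by 4 pyrimidines. RPL9 had the highest coverage among them, at a level of 10.8% from 454 reads.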

How the data were processed

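The members and gene lists were chosen with earlier results of these data known. Per the study's methods and the labels, the authors pooled 22 gradient fractions into 6, trimmed reads with cutadapt 1.13 and Trimmomatic 0.36, mapped them to the converted GRCh37 genome with HISAT2 (given as 2.10) and the rest to the converted transcriptome with Bowtie2 2.2.9, and called sites with at least 20 reads, a level of at least 10% and 3 variant bases of quality 30. The coverage deposited by the authors is a count of C and T reads, and the deposited m5C level is a fraction. The authors also deposited a P-value from their binomial test, which was not used. It is not stated whether counts precede the removal of reads with many unconverted C, a step that can lower a level.

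C reads were level times coverage, whole at all 1222 listings (tolerance 1e-06). All 542 positions were C in GRCh37. Sites were placed in GENCODE 44 transcripts lifted to that build, and 21 nt were taken around each, from the genome where a site lay in no transcript. Type II sites were followed by UCCA and all others were Type I. Structures came from RNAfold 2.7.2, and statistics from Python 3.11.15 with scipy 1.17.1. Fisher's exact test was tested on simulated data and had a threshold of 0.05. Named genes were the members, the ribosomal protein genes with a listed site (1 is not reported here), the 5 sites of highest coverage in each library that listed a member, and the 2 nearest by level. Alternatives were other coverage minimums, Clopper-Pearson intervals, other denominators, and other windows and flanks. Listed sites per library numbered 172, 199, 233, 177, 216 and 225, with 764521, 377637, 189137, 156825, 75927 and 50416 reads from the free to the heavy polysome library.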

Additional observations from a re-analysis of the deposited data

How the results depend on the processing

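No paired analysis was possible because each fraction had 1 library, and for the same reason no replicate could be left out. Of 99 alternatives, 32 moved a value, as given here, and 0 reversed a direction. The higher coverage minimums could not change a level, since the members had at least 2762 reads. The RPS3 level with the reads of RPS3P6 added lay within its Wilson interval, and exact Clopper-Pearson intervals moved a bound by at most 0.0302 percentage points. The share of listed reads at the 3 sites depended on the denominator. From the free to the monosome library it was 60.2%, 45.3%, 43.0% and 49.3% without mitochondrial genes, 82.6%, 68.3%, 63.3% and 65.1% without the 5 other sites of highest coverage, 64.9%, 47.9%, 44.7% and 52.9% over protein-coding genes, and 44.8%, 32.7%, 35.0% and 46.0% over sites listed in 2 or more libraries plus the members. The number of the next 10 bases that opened a stem was 0, 2 and 3 in RPS3, RPS29 and RPS26 with 25 nt on either side, and 8 in RPS3 and 0 in RPS26 with 75 nt. Other exact matches in the genome fell to 1, 1 and 9 at 51 nt, and to 15 for RPS26 at 31 nt. After conversion they fell to 3 at 31 nt and 2 at 51 nt for RPS29 and to 14 at 51 nt for RPS26. Of the small-subunit genes 5 were listed in 2 or more libraries and 6 had at least 50 reads, against 2 and 3 of the large-subunit genes. The shares moved because each alternative leaves out other sites, and the cause of the changes in predicted stems was not tested. Depth limits RPS26 most, with 2762 reads in 1 library.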
